A study of Chamaelirium luteum with 2 samples.

Results

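The terminal 1 Mb of the assembled scaffolds of *Cha. luteum* held 1971 peaks of open chromatin in leaf replicate 1 and 2121 in leaf replicate 2, of 39233 and 41385 peaks in all (5.02% and 5.12%). A peak was a member if its summit, the position of highest signal inside the peak, lay within 1 Mb of either end of scaffolds 1 to 22 and neither inside nor within 2 Mb of a centromere listed by the study. Of the 44 scaffold ends, 38 could be counted over their full 1 Mb and 5 not at all, because a centromere or its margin covered them (the left ends of scaffolds 10, 12 and 20 and the right ends of scaffolds 17 and 20). The left end of scaffold 17 was countable over 24.1 kb, which held 4 peaks in each library. The 224 and 258 peaks near an end but also near a centromere were left out. The interior, the sequence more than 1 Mb from both ends and outside the centromeres and their margins, served as the reference for each end and held 35224 and 36972 peaks over 567 Mb, against 38.02 Mb of terminal sequence.

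Both libraries came from fresh leaves of *Cha. luteum* and formed 1 condition, with no treatment in the labels apart from the transposition itself, about 75000 nuclei per reaction and no second tissue, genotype or treatment. The labels give no plant age and do not say whether the libraries came from separate plants, and the names inside the deposited list of replicate 2 carry A114 where its label reads A112; the label was followed. Values are therefore given as the mean ± SD of the 2 libraries, and the p-values compare scaffolds of 1 assembly, so that neither measures the spread between plants. Read totals cannot be read from peak lists, and the fewest fragments at any listed summit were 11 in both libraries, so that weaker open regions were not detectable at this depth.

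In ATAC-seq the Tn5 transposase inserts sequencing adapters into DNA that is not covered by nucleosomes, and a peak marks a stretch where many insertions fall, typically a promoter, an enhancer or another regulatory element. Plant chromosomes end in telomeres, arrays of a short repeat, and the subtelomeres next to them often mix duplicated sequence and repeats with genes. A scaffold end is the end of an assembled sequence and need not be a telomere. The 22 scaffolds outnumber the chromosomes of a haploid set by the count of the study, so some of the 44 ends must lie inside chromosomes. The ends are thus a mixture, and their values do not describe subtelomeres alone. The files do not say which of the 44 ends are telomeric. Reads that map to several places were removed by the authors, so a repeat at an end may give no peak whether or not it is open, and repeat content cannot be told apart from accessibility here.

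On average, the ends held fewer called peaks per Mb than the scaffold interiors. Averaged over the 20 scaffolds with a countable end and an interior, the terminal 1 Mb held 52.8 summits per Mb in replicate 1 and 56.8 in replicate 2, and the interior of the same scaffolds 62.7 and 66.1. The terminal density was thus 0.851 ± 0.0130 (SD, n = 2 libraries) of the interior density. The difference, 54.8 ± 2.88 against 64.4 ± 2.40 summits per Mb, was -9.57 ± 0.480 and was negative on 15 of the 20 scaffolds (sign-flip permutation test over scaffolds, two-sided, p = 0.00766). Adjusted by Benjamini-Hochberg over the 8 results tested, the permutation p was 0.0213. Scaffolds differed widely, from -35.2 summits per Mb on scaffold 1 to 12.9 on scaffold 12 (SD over scaffolds 14.2), which is far more than the spread between the libraries. The difference kept its sign and stayed below 0.05 in each of the 14 alternatives with a test, with values from -13.2 for the outermost 500 kb to -7.07 for the outermost 2 Mb.

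Counted end by end, 25 of the 38 full ends (65.8%) lay below the interior mean of their own scaffold, all 25 of them in both libraries, and the other 13 lay above it in both. Of 554 interior windows of 1 Mb, 48.7% lay below the interior mean of their scaffold. Ends below 50% of the interior mean were rare: 3 of 38 (7.89%), against 5.23% of the interior windows. A further 5 ends lay just above that mark, with ratios from 0.503 to 0.563. The share of interior windows in that range was not counted, so no excess of such ends is shown. The lowest end had 3.5 summits per Mb (mean of both libraries), the median end 54.75 and the highest 89, whereas the interior windows ran from 0.5 through a median of 65.75 to 113. The SD over ends was 20.04, close to the 18.4 over interior windows. The counts of the 2 libraries followed each other over the 38 ends (Pearson's r = 0.962, Spearman's rho = 0.955, a description over ends that share both libraries), with more summits in replicate 2 at 32 ends, fewer at 5 and as many at 1.

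**Figure D1:**
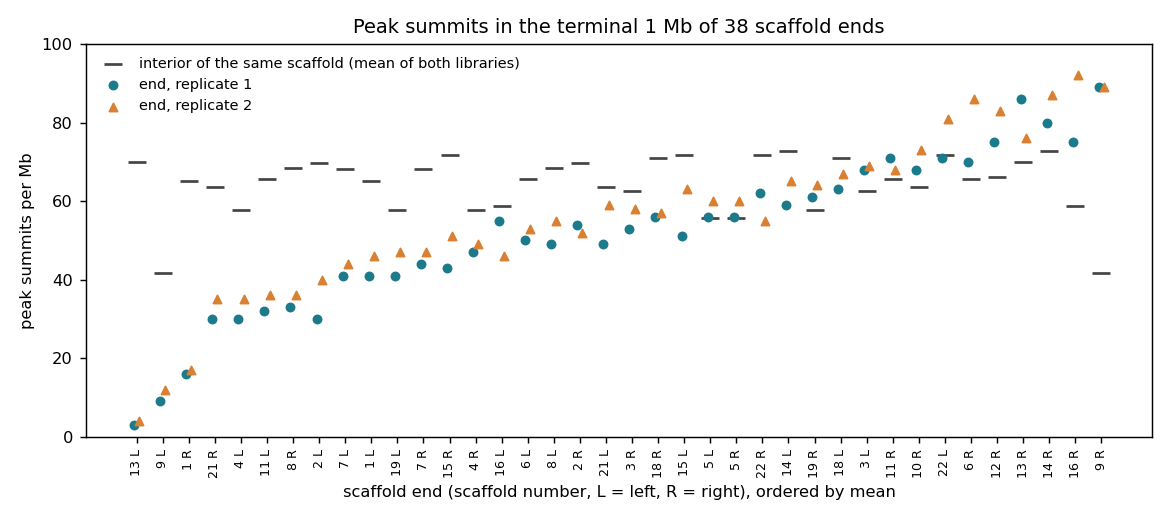
Peak summits per Mb (y axis) in the terminal 1 Mb of the 38 full scaffold ends (x axis, ordered by the mean), with 1 circle for replicate 1, 1 triangle for replicate 2 and a dash for the mean interior density of the same scaffold. The left ends of scaffolds 13 and 9 and the right end of scaffold 1 stand lowest, at 3.5 to 16.5 summits, and at 25 ends both libraries lie below the dash.

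The 3 poorest ends were the left ends of scaffolds 13 and 9 and the right end of scaffold 1. Scaffold 13 left (positions 1 to 1000000; all coordinates are those of the authors' assembly, counted from 1) had 3 summits in replicate 1 and 4 in replicate 2, or 0.0501 of the 69.9 summits per Mb of that scaffold's interior. None of the 22 interior windows of scaffold 13 had so few. Its peaks were almost a single cluster: the 3 peaks of replicate 1 lay between 904599 and 906917, and 3 of the 4 in replicate 2 between 904622 and 907044. The middle peak of the cluster was a strong one, with a fold enrichment over the background modelled by the peak caller of 9.19 in replicate 1 and 10.5 in replicate 2 (96 and 119 fragments at the summit). The only other peak, at 11.05 kb from the end, had a fold of 3.83 and was called in replicate 2 alone. The 8 consecutive steps from 100 to 900 kb were empty in both libraries, the longest such run at any end.

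Scaffold 9 left (positions 1 to 1000000) had 9 and 12 summits, 0.251 of its interior density of 41.8 per Mb. This interior is itself poor, and 13 of its windows of 1 Mb had fewer summits than the end. The tallest peak of this end, 85.8 kb from the scaffold end, had a fold of 11.8 in replicate 1 and 13.8 in replicate 2. Scaffold 1 right (67265396 to 68265395) had 16 and 17 summits, 0.253 of an interior of 65.2 per Mb, and none of the 46 interior windows of that scaffold was poorer. It had no summit between 500 and 700 kb from the end in either library. The median fold of its peaks was 4.96, against 4.87 in the interior of scaffold 1. Over both ends of scaffold 1 the median fold was 4.63. The median summit of both ends had 24.5 fragments over a background of 4.35, against 32.5 over 5.61 in the interior. The left end gave most of these peaks, so these values are not those of the right end alone. One more end, scaffold 21 right, with 30 and 35 summits and a ratio to the interior of 0.511, was below every interior window of its scaffold. That scaffold has only 9 such windows, so this rank means less than the one on scaffold 1.

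The 3 richest ends were scaffold 9 right, scaffold 16 right and scaffold 14 right. Scaffold 9 right (38688116 to 39688115) had 89 summits in each library, 2.13 times its interior density, which was itself low at 41.8 per Mb. Scaffold 16 right (13908029 to 14908028) had 75 and 92, a ratio of 1.42. It was the only end above every interior window of its scaffold, which has only 12 of them. Its libraries were also the farthest apart of all ends, by 17 summits. Scaffold 14 right (21080911 to 22080910) had 80 and 87, a ratio of 1.15. All 3 rich ends exceeded their interior mean in both libraries.

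Opposite ends of a scaffold ranged from equal counts on scaffold 5 to very different ones. Over the 18 scaffolds with both ends counted in full, the median difference between the ends was 18.25 summits per Mb, and the left and right counts had a Pearson's r of -0.285 (a description over 18 scaffolds). Both ends were below the interior on 8 scaffolds, one of them on 9 and neither on 1. The largest gap was on scaffold 9, at 10.5 against 89 summits per Mb (a difference of 78.5 ± 2.12). Scaffold 13 followed with 3.5 against 81 (77.5 ± 7.78) and scaffold 11 with 34 against 69.5 (35.5 ± 4.95). The poorest and the richest end of the whole set of 38 thus lie on scaffolds whose opposite end has a very different density.

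Scaffolds 1, 3, 4 and 5 have their centromere between a pair of long arms, so both their ends lie far from it. Scaffold 1 had 41 and 46 summits at the left end against the 16 and 17 at the right, both below the interior. Scaffold 3 had 68 and 69 summits at the left end and 53 and 58 at the right, around an interior of 62.6 per Mb. Scaffold 4 was low at both ends, with 30 and 35 at the left and 47 and 49 at the right, against 57.7 per Mb. Scaffold 5 had 56 and 60 at either end, against 55.6. The 4 scaffolds thus ranged from both ends poor to both ends level with the interior.

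No difference was detected between scaffolds with and without a listed centromere. The mean ratio of terminal to interior density was 0.916 over the 6 compared scaffolds with a listed centromere and 0.839 over the 14 without. The difference of 0.0770 ± 0.00549 was small beside the scatter of scaffolds (exact permutation test between scaffolds, two-sided, p = 0.484). Its sign turned with the outermost 500 kb (-0.0332) and with the sequence 1 to 5 Mb from each end as the interior (-0.00786). A scaffold without a listed centromere may hold one that was not assembled, so these groups are those of the list.

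The 3 steps of 100 kb nearest the end were those that passed the test against the interior. In steps of 100 kb from the end, the density averaged over the 20 scaffolds was 48.0 ± 2.12 summits per Mb in the first step, 44.9 ± 3.01 in the second and 49.0 ± 4.60 in the third. The differences from the interior mean of 64.4 were -16.4, -19.5 and -15.4, with lower values on 16, 17 and 16 of the 20 scaffolds. The permutation p, adjusted by Benjamini-Hochberg over the 10 steps, was 0.0266, 0.00640 and 0.0198. The fourth step, 52.2 summits per Mb and lower on 15 scaffolds, did not pass (adjusted permutation p = 0.0963). From 400 kb inward the steps ran from 55.1 to 64.0 summits per Mb, with differences from -9.23 to -0.355 and adjusted permutation p from 0.292 to 0.957. Whether the outer steps differ from the inner ones was not tested. Pooled over the 38 ends, the outer 400 kb held 710 and 765 summits (46.7 and 50.3 per Mb), and the 400 kb to 1 Mb stretch 1257 and 1352 (55.1 and 59.3 per Mb).

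**Figure D2:**
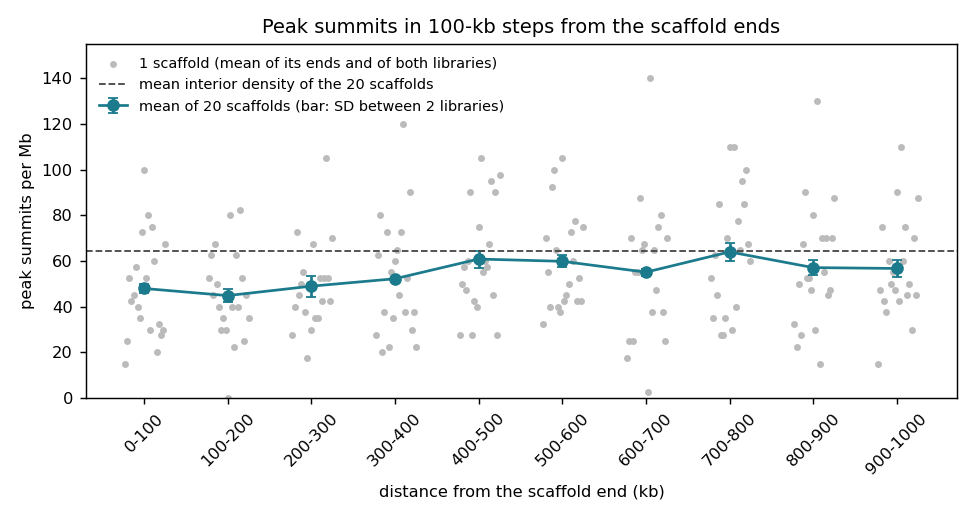
Peak summits per Mb (y axis) in steps of 100 kb from the scaffold end (x axis). Grey points are single scaffolds, circles the mean of 20 scaffolds with the SD between the 2 libraries, and the dashed line is the mean interior density of 64.4; the first 3 steps, at 44.9 to 49.0, passed the test and the eighth, at 64.0, reached the line.

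The call for the first 100 kb was not kept at every scale or in every set of scaffolds. With the outermost 50 kb alone the difference was -3.60 ± 2.76 summits per Mb (permutation p = 0.660), and with the outermost 200 kb it was -17.9 (permutation p = 6e-05). Restricted to the 14 scaffolds of at least 20 Mb, the first 100 kb gave -12.2 ± 0.978 (permutation p = 0.111); scaffold length and the smaller number of scaffolds cannot be told apart here.

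Finer steps were chosen after this dependence had been seen and are given without a test. In these steps the density at the very tip was not below the interior mean, although the libraries differed in the first 10 kb (84.2 and 65.8 per Mb). In the outermost 20 kb of the 38 ends there were 62 summits in replicate 1 and 57 in replicate 2, or 81.6 and 75 per Mb, above the interior mean. From 20 to 50 kb the density was 43.0 and 48.2 per Mb, and from 50 to 100 kb it was 29.5 and 36.3 per Mb, less than in any of the 10 steps of 100 kb. Farther in, from 100 to 200 kb, the steps of 10 kb ran from 30.3 to 53.9 per Mb (mean of both libraries), except for the step from 130 to 140 kb with 71.1 and 76.3. A summit lay in the outermost 10 kb of 23 of the 38 ends in at least 1 library.

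**Figure D3:**
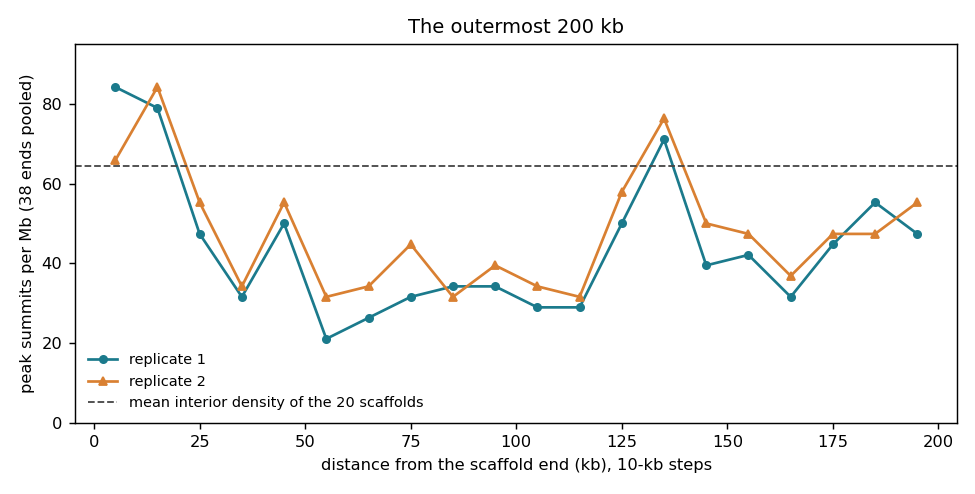
Peak summits per Mb (y axis), pooled over the 38 full ends, in steps of 10 kb over the outermost 200 kb (x axis, distance from the scaffold end), for replicate 1 (circles) and replicate 2 (triangles), with the mean interior density as a dashed line. Both libraries are above the line in the first 20 kb (81.6 and 75 per Mb) and well below it from 50 to 100 kb (29.5 and 36.3 per Mb).

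The distance from the end to the outermost summit was short at most ends. Its median was 7.61 kb in replicate 1 and 10.6 kb in replicate 2, or 9.09 ± 2.10 kb, against 12.1 ± 0.538 kb from 5438 evenly placed interior points to the next summit. The outermost summit lay within 50 kb in both libraries at 32 ends. At the other 6 it lay farther in than 50 kb in at least 1 library. The longest stretch was at scaffold 13 left, 904.6 kb in replicate 1 but 11.05 kb in replicate 2, where the single weak peak named above decides the value. At scaffold 1 right it was 112.2 kb in replicate 1 and 23.2 kb in replicate 2, again set by a peak called in 1 library. At scaffold 2 right it was 67.3 kb in both libraries.

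Empty steps were few. No summit fell in either library in 18 of the 380 terminal steps of 100 kb (4.74%), while 3.66% of 5654 interior windows of 100 kb were empty. Of the 18, 8 were at scaffold 13 left and 3 at scaffold 1 right, and the rest were spread over 6 other ends. No end was empty in its first 100 kb. The fullest step was 400 to 500 kb from the right end of scaffold 11, with 14 summits in replicate 1 and 16 in replicate 2. On the same end the step from 600 to 700 kb was empty in both libraries, so that full and empty steps can lie close together.

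**Figure D4:**
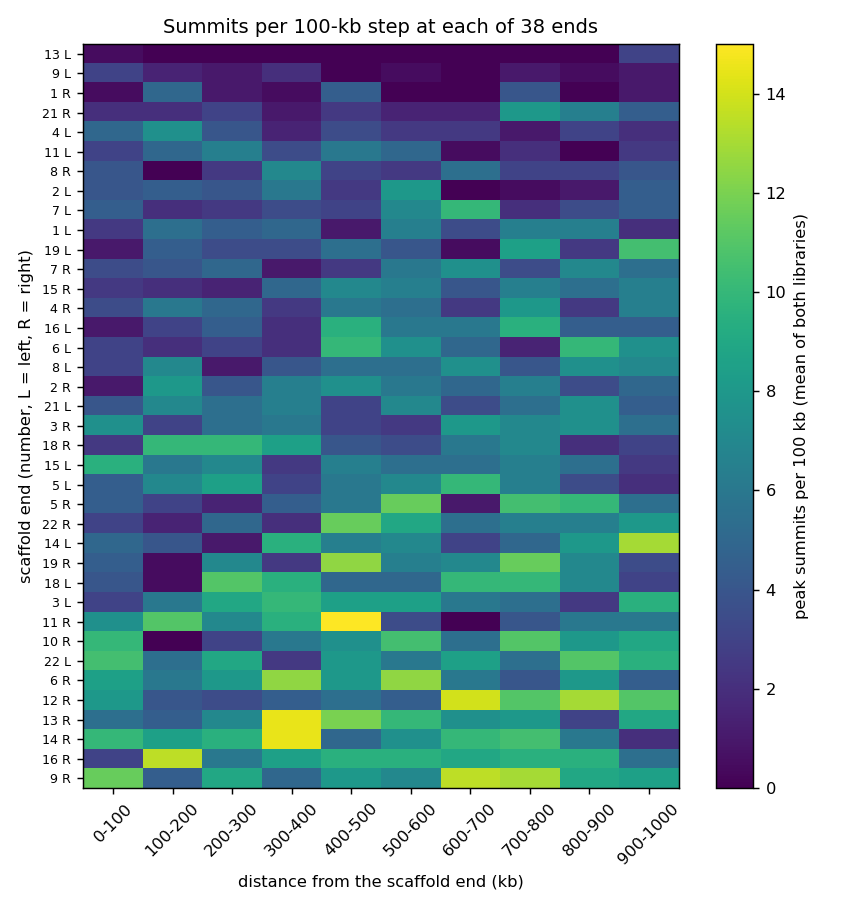
Peak summits per 100-kb step (colour, mean of the 2 libraries, 0 to 15) at each of the 38 full ends (rows, ordered from the poorest to the richest) by distance from the scaffold end (columns, kb). The top row, scaffold 13 left, is dark from 100 to 900 kb, and the brightest cell is scaffold 11 right at 400 to 500 kb with a mean of 15.

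Individual terminal peaks were less often found in both libraries. On average over the 20 scaffolds, 76.5% ± 3.75 of the terminal and 80.2% ± 3.09 of the interior peaks of a library overlapped a peak of the other by at least 1 bp. The difference was -3.69 ± 0.662 percentage points and negative on 14 of 20 scaffolds (sign-flip permutation test, two-sided, p = 0.00294, 0.0213 adjusted over the 8 results). In total, 1564 terminal peaks of replicate 1 and 1570 of replicate 2 were shared. The share was lowest in the first 100 kb, at 67.1%, and between 73.8% and 81.1% in the other 9 steps, which were not tested one by one. With a minimum -log10 q of 5 for every peak, the difference shrank to -1.94 points (permutation p = 0.0162). Single ends ran from 61.9% at scaffold 21 right to 89.7% at scaffold 2 right.

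For the strength and the width of the peaks no difference between ends and interior passed the test. The median fold enrichment, averaged over scaffolds, was 4.75 ± 0.206 at the ends and 4.89 ± 0.219 in the interior, a difference of -0.148 ± 0.0132 with lower values on 13 of 20 scaffolds (permutation p = 0.0916). Without the margin around the centromeres this became -0.247 (permutation p = 0.0117), among shared peaks -0.00562 (permutation p = 0.949) and with a minimum -log10 q of 5 -0.0620 (permutation p = 0.411). The median number of fragments at the summit was 30.9 ± 0.689 against 33.3 ± 0.636, a difference of -2.39 ± 0.0530 (permutation p = 0.0534). This difference depended on the peaks and scaffolds included. It passed without scaffold 9 (-2.57, permutation p = 0.0482), without scaffold 13 (-2.62, permutation p = 0.0421), and in replicate 1 alone (-2.43, permutation p = 0.0486). It shrank to -0.839 on the scaffolds of at least 20 Mb (permutation p = 0.543) and to -1.44 among shared peaks (permutation p = 0.306).

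The background that the peak caller modelled around the summits was 5.54 ± 0.181 fragments at the ends and 5.84 ± 0.202 in the interior (permutation p = 0.160). Over the whole 1 Mb, no difference in the level needed for a call was thus shown. The difference was -0.405 with 500 kb ends (permutation p = 0.0918) and -0.0837 on scaffolds of at least 20 Mb (permutation p = 0.739). By steps of 100 kb, which were not tested for it, the median background was lowest in the first, at 4.76 fragments, and from 4.90 to 6.10 farther in. The median width was 365 ± 5.18 bp against 370 ± 1.87 bp (permutation p = 0.426), and the sign of this difference turned in 3 of 11 alternatives. Over the 20 scaffolds the differences spread with an SD of 0.373 in fold, 5.14 in fragments and 24.2 bp in width, which limits the size of a difference that could be seen.

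**Figure D5:**
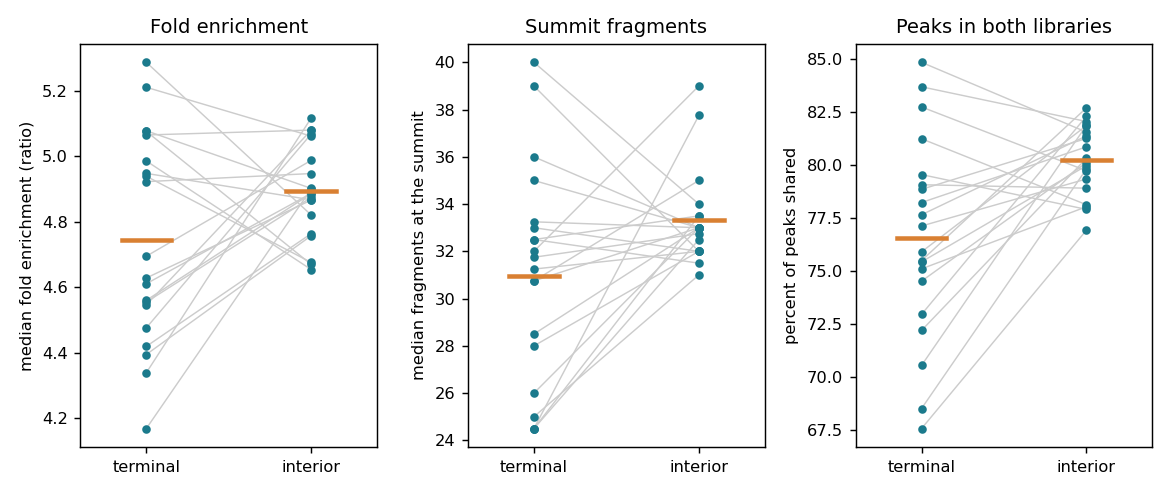
Median fold enrichment (left), median fragments at the summit (middle) and percent of peaks shared with the other library (right) for the terminal and the interior peaks of 20 scaffolds, as means of the 2 libraries. A grey line joins the values of 1 scaffold and a thick bar gives the mean (4.75 and 4.89, 30.9 and 33.3, 76.5% and 80.2%); the terminal mean is the lower one in each panel, and only the share of peaks in the right panel passed the test.

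Pooled over all terminal sequence, peaks covered 2.17% of the bases in replicate 1 and 2.34% in replicate 2, against 2.67% and 2.78% of the interior. The median distance between neighbouring summits was 10.1 ± 0.514 kb at the ends and 8.71 ± 0.273 kb in the interior, and neighbours closer than 1 kb made up 7.21% and 6.45% of the distances. Peaks of at least 1 kb made up 2.23% of the terminal and 2.61% of the interior peaks, and a fold of at least 10 was reached by 6.60% and 6.94% in replicate 1 and by 10.9% and 10.7% in replicate 2. At 16.2% of terminal summits, against 13.3% of interior ones, the background was the lowest of the library, taken as the genome-wide floor of the peak caller. The genome size setting behind this floor is not given, so whether it equals the average of the genome is not known.

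The tallest shared terminal peak was on scaffold 15 right, at 16717887 to 16718423 in replicate 1, 179.9 kb from the end. It reached a fold of 20.9 in replicate 1 and 23.1 in replicate 2, with 142 and 192 fragments at the summit. Scaffold 15 left held 2 more of the 5 tallest, at 631924 to 632483 (folds of 18.7 and 18.4) and at 217860 to 218379 (16.5 and 18.7). The others were on scaffold 6 right, at 46707248 to 46707628 (17.4 and 19.6), and on scaffold 14 right, at 21649424 to 21649976 (15.0 and 20.3). None of the 5 lay in the outermost 100 kb. That step held only 167 of the 1967 summits of the full ends in replicate 1 and 181 of 2117 in replicate 2, so this absence says little. The peak lists carry no gene names, and no sequence or annotation of the assembly was used here, so what these peaks lie next to is not given.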

How the data were processed

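ATAC-seq was analysed from 1 peak list per library (leaf replicates 1 and 2). By the account of the study, the authors used fastp 0.20.0 for trimming, BWA-MEM 0.7.17 for alignment to their own assembly, SAMtools 1.16.1 (mapping quality 30) to drop duplicates and reads with several placements, and MACS 3.0.0 with a q of 0.01 for peaks, each library by itself. Neither the genome size setting nor any read shift, extension or control is given in the sources used here. In the deposited lists the fold enrichment is a ratio of summit fragments to modelled background, both -log10 columns (of p and of q) refer to the summit, and the score, derived by the authors' caller from the q-value, was not used further.

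From the deposited fold and -log10 p of each peak, the fragments at its summit and the background were solved together. For 100% of peaks the fragments came out whole, within a relative error of 0.0001 in the p-value. The lowest background of each library, taken as the genome-wide one, was 3.38 and 3.18 fragments. MACS uses the higher of a local and the genome-wide background, so a low background lets a peak be called from fewer fragments. Scaffold lengths and the 8 centromere intervals were those listed by the study.

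Densities, medians and shares were computed per library and scaffold, with both ends of a scaffold pooled, and averaged over the libraries. Each scaffold counted once in the sign-flip permutation tests (100000 resamples, two-sided). Scaffolds 17 and 20, with no full end, entered only the alternatives without the centromere margin. Medians and shares needed at least 10 peaks in both parts of a scaffold in each library. The scripts were tested on simulated data. Alternatives changed the peak filter, the terminal length, the interior, the margin, the scaffolds included, the overlap that counts as shared, and left out each library. The members, the named regions, the tests and the alternatives were chosen with earlier results of these data known, and those without scaffold 1, or without scaffolds 9 and 13 together, as well as the 10-kb steps, were chosen after seeing the data. The named ends and peaks are the 3 poorest and 3 richest ends, both ends of scaffolds 1, 3, 4 and 5, the left ends of scaffolds 9 and 13, the 3 longest stretches before the outermost summit, the 3 largest gaps between ends, the 5 tallest shared peaks, and the fullest and emptiest steps; scaffold 21 right was added after its values were seen. Computation ran in Python 3.11.15 with scipy 1.17.1, pandas 2.3.3, numpy 2.4.6 and, for plots, matplotlib 3.10.9.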

Additional observations from a re-analysis of the deposited data

Results flagged for a closer look

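The 6 ends that the comparison left out in whole or in part, because a listed centromere lies within 2 Mb of them, also carried peaks outside the centromere itself. They held 217 summits in replicate 1 and 251 in replicate 2 over 4.54 Mb, or 51.5 ± 5.29 summits per Mb. A count of 0 over that length would allow up to 0.660 per Mb (3 summits). No test set these ends against the other ends or the interior. The values of single ends were uneven. Scaffold 20 left was highest, with 39 and 57 summits (72.6 ± 19.2 per Mb), followed by scaffold 12 left with 22 and 26 (67.3 ± 7.93), scaffold 10 left with 58 and 65 (63.8 ± 5.13) and scaffold 20 right with 59 and 62 (60.5 ± 2.12). Both ends of scaffold 17 were low, with 31 and 29 summits at the left (30 ± 1.41) and 8 and 12 at the right (17.8 ± 5.03). These ends lie near both a scaffold end and a centromere, and these positions cannot be told apart.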

How the results depend on the processing

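Of 96 alternatives over the 8 tested results, 82 kept the direction and, where there was a test, the side of the threshold. The terminal density difference did so in the 14 with a test (permutation p from 0.00025 to 0.0367) and kept its direction when pooled by length, and the share of peaks found in both libraries in all 11 (-4.15 to -1.94 points, permutation p from 0.00109 to 0.0444). For the outermost 100 kb, the difference was no longer past the threshold over the outermost 50 kb (-3.60) and on scaffolds of at least 20 Mb (-12.2), and pooling by length moved it to -17.9. The fold difference passed the threshold without the centromere margin (-0.247). The difference in summit fragments passed it with 2 Mb ends (-2.09), without scaffold 9 (-2.57), without scaffold 13 (-2.62) and without the margin (-2.57), and ranged from -2.43 to -2.35 with 1 library left out, where it passed in replicate 1 alone. The width difference turned to 4.25 bp with a minimum -log10 q of 5, to 4.75 bp for shared peaks and to 1.63 bp on scaffolds of at least 20 Mb. The ratio difference by listed centromere turned to -0.0332 with 500 kb ends and to -0.00786 with the 1 to 5 Mb next to the ends as the interior. The causes were not tested. Regions under the 11 fragments of the weakest listed peak are not in these lists, both libraries are of 1 condition, and ends that lie inside chromosomes are not marked in the files.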
